A study of Homo sapiens with 21 samples.

Results

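The genes described here are 10 feedback genes of the ERK pathway, read from a count table of 42339 gene identifiers by matching the identifiers to the symbols DUSP4, DUSP5, DUSP6, SPRY1, SPRY2, SPRY4, SPRED1, SPRED2, ETV4 and ETV5, and all 10 were found. The study compared BT-549 cells, an established triple-negative breast cancer (TNBC) cell line, in 2D culture and as serially passaged mammospheres (3D cells), and asked what silencing MUC1-C or MYC, or treatment with GO-203, did to mammosphere transcription. GO-203 is a peptide inhibitor of MUC1-C that targets the CQC residues in its cytoplasmic tail. Total RNA was made into stranded mRNA libraries and sequenced, with 3 libraries in each of 7 groups and 21 in all.

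The labels give the genotype of every group as WT. The 2D cells grew attached in RPMI1640 with 10% fetal bovine serum and insulin, and the 3D cells grew in ultra-low attachment plates in MammoCult medium to passage 6. A further group of passage 6 3D cells received 0.75 μM GO-203, and the labels name no vehicle for the untreated 3D cells. The remaining groups were mammospheres of lines carrying a DOX-inducible shRNA. The tet-MUC1shRNA line at passage 6 and the tet-MYCshRNA line at passage 8 were each given 0.1% DMSO (vehicle) or 500 ng/ml DOX (doxycycline), which switches on the shRNA. Each silencing rests on 1 line and 1 shRNA, and libraries of a control shRNA with DOX were not analysed here, so silencing and DOX itself cannot be told apart. The study's methods give the RNA as coming from cultures grown in triplicate, so the p-values measure the spread between cultures of 1 line.

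ERK is the last kinase of the RAS, RAF, MEK and ERK cascade, which carries growth factor signals to the nucleus. Active ERK raises the transcription of genes whose products act back on the cascade, so the transcript levels of these genes are widely used as a readout of pathway output. The dual-specificity phosphatases DUSP4 and DUSP5 act in the nucleus and DUSP6 in the cytoplasm, where they remove phosphate from ERK. Sprouty proteins (SPRY1, SPRY2, SPRY4) and SPRED proteins (SPRED1, SPRED2) act upstream at the level of receptors, RAS and RAF, and SPRED proteins bring the RAS GTPase-activating protein neurofibromin to the membrane. ETV4 and ETV5 are ETS transcription factors of the PEA3 group that carry the output forward, and the repressor CIC, which ERK signalling inactivates, holds down several genes of this kind.

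Gene positions are those of GENCODE release 44 on GRCh38. The phosphatase genes are DUSP4 (ENSG00000120875.9, chr8:29333064-29350684, minus strand), DUSP5 (ENSG00000138166.6, chr10:110497907-110511533, plus strand) and DUSP6 (ENSG00000139318.8, chr12:89347235-89352501, minus strand). The Sprouty genes are SPRY1 (ENSG00000164056.11, chr4:123396795-123403760, plus strand), SPRY2 (ENSG00000136158.12, chr13:80335976-80341126, minus strand) and SPRY4 (ENSG00000187678.10, chr5:142310427-142326455, minus strand). The SPRED genes are SPRED1 (ENSG00000166068.13, chr15:38252836-38357249, plus strand) and SPRED2 (ENSG00000198369.10, chr2:65310851-65432637, minus strand), and the ETS factor genes are ETV4 (ENSG00000175832.13, chr17:43527844-43579620, minus strand) and ETV5 (ENSG00000244405.8, chr3:186046314-186110318, minus strand). The genes lie on 10 different chromosomes. An unnamed gene on the opposite strand covers 28.6% of the DUSP6 exon bases. It had 4 to 134 counts per library, which is 0.588% to 5.15% of the DUSP6 count in the same library. ETV5 shares 2.84% of its exon bases with DGKG on the same strand, ETV4 shares 1.94% with DHX8 on the other strand, and DUSP5 has 2 named pseudogenes.

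Library totals ranged from 38026597 to 99751717 counts, and in each of the 21 pairs of libraries within a group the counts were further apart than counting noise allows (chi-square over degrees of freedom, 4.13 to 45.6). The labels give the tissue as epithelial, yet 5 breast epithelial markers summed to 0.0396 to 2.77 CPM (counts scaled to the library total), with EPCAM, KRT18 and KRT19 below 1 CPM in all 21 libraries, whereas 4 mesenchymal markers summed to 2180 to 16010 CPM. KRT18 has 68 named pseudogenes, which can take reads from it. Leukocyte markers summed to 0.0513 to 1.67 CPM and the endothelial markers PECAM1 and CDH5 to 0 to 10.3 CPM, with CDH5 below 1 CPM in all 21 libraries. MUC1 measured 101, 82.5 and 85.3 CPM with vehicle and 20.2, 21.7 and 23.1 CPM with DOX in the tet-MUC1shRNA line (0.240-fold, adjusted p = 2.97e-15 by edgeR). MYC measured 446, 425 and 382 CPM with vehicle and 239, 282 and 304 CPM with DOX in the tet-MYCshRNA line (0.651-fold, adjusted p = 9.05e-05), and MUC1 was 2.39-fold higher in the same DOX libraries (adjusted p = 5.06e-06).

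RefSeq promoter windows (GRCh38.p14, 250 bases before to 50 after a start site) matched 6 of the 10 genes, with 10 windows in all, for DUSP6, SPRY1, SPRY2, SPRY4, SPRED1 and SPRED2. DUSP4, DUSP5, ETV4 and ETV5 had no entry. The 4 windows printed here are from the genes that moved furthest apart when MUC1 was silenced, with DUSP6 and SPRY4 on the rising side and SPRY1 and SPRY2 on the falling side. Each is written 5′ to 3′ along the gene, and capitals mark the ETS sequence CCGGAA or the PEA3 sequence AGGAAG, or either sequence read on the other strand (TTCCGG or CTTCCT).
DUSP6, chr12:89352452-89352751, minus strand: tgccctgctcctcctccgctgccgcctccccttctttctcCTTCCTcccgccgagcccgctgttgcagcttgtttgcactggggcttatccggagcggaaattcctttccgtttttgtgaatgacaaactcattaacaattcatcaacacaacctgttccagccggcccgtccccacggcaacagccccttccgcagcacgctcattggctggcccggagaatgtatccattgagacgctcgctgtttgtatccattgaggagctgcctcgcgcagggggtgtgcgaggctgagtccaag
SPRY4, chr5:142324198-142324497, minus strand: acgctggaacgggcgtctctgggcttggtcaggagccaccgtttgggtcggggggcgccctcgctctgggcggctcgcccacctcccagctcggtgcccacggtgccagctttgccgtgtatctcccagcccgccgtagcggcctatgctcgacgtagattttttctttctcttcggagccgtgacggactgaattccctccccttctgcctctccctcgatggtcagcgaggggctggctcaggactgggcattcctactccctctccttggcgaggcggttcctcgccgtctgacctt
SPRY1, chr4:123398136-123398435, plus strand: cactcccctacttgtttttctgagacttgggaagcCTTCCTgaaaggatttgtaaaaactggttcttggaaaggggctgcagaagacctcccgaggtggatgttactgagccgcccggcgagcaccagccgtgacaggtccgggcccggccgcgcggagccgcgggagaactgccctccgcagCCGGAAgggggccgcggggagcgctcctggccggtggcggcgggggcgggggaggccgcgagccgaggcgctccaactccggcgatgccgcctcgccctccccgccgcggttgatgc
SPRY2, chr13:80341077-80341376, minus strand: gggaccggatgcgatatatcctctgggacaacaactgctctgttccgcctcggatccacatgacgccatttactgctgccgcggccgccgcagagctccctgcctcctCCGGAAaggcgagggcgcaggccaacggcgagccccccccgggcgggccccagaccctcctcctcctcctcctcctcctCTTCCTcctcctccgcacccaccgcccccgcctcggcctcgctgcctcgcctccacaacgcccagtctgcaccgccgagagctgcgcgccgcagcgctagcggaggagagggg
SPRY1 and SPRY2 each have 2 or more windows, and the ones printed are those with CCGGAA, which starts 67 bases before the start site in SPRY1 and 142 bases before it in SPRY2. CCGGAA was in 2 of the 10 windows (20%) and in 17.2% of all 35116 windows of the same length. AGGAAG was in 8 of the 10 windows (80%), of 5 genes, and in 33.6% of all windows, and the SPRY4 window had neither sequence. AGGAAG was added to the search after the first windows were seen, and the count rests on windows that in part belong to the same gene. TGAATGAA and TGAATGGA, sequences that CIC is known to bind, and the E-box CACGTG were in 0 of the 10 windows, against 1.65%, 1.03% and 7.26% of all windows. The AP-1 sequence TGANTCA was in 1 of the 10 windows, the second one of SPRED2, against 7.71% of all windows. None of the motifs overlapped another in the windows shown. A match is a description of letters and not a measured site, and the absence of letters from a window says nothing of a factor.

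All 10 genes were lowest in 2D cells. For each of them the highest 2D library lay below the lowest of the 18 mammosphere libraries, which was so for 8.91% of the 22652 genes with enough counts across the series. As a ratio of these 2 libraries the gap was widest for SPRY4 (18.1), whose highest 2D library measured 4.64 CPM and whose lowest mammosphere library, one treated with GO-203, measured 84.1 CPM. The ratio was lowest for SPRY1 and SPRED1 (both 1.56). Between the highest and the lowest group mean, SPRY4 spanned 91.6-fold, DUSP5 54.8-fold, DUSP4 51.8-fold, DUSP6 30.1-fold and ETV4 25.7-fold, whereas SPRY2 spanned 10.2-fold, ETV5 9.17-fold, SPRY1 5.33-fold, SPRED2 3.73-fold and SPRED1 3.72-fold.

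**Figure D1:**
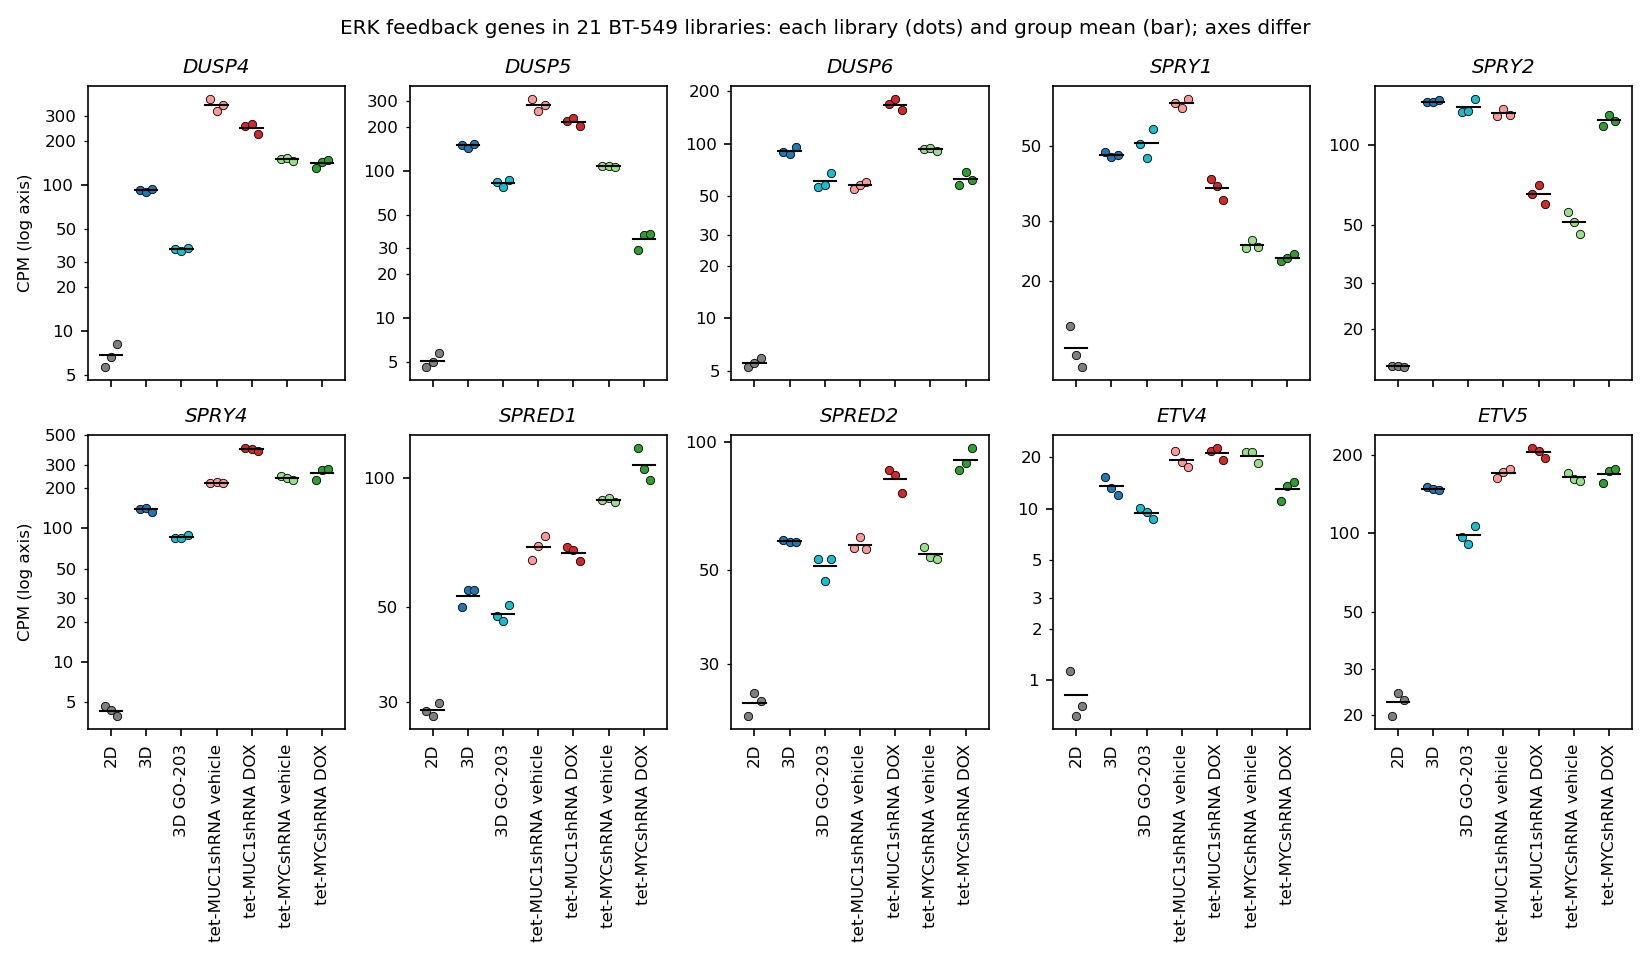
CPM of the 10 feedback genes (log axis, one panel a gene) in each of the 21 libraries (dots) with the mean of each group of 3 (bar). In every panel the 3 libraries of 2D cells lie below the other 18.

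The highest group differed between the genes. DUSP4, DUSP5 and SPRY1 peaked in vehicle-treated tet-MUC1shRNA mammospheres, and DUSP6, SPRY4, ETV4 and ETV5 in the same line with DOX, although the first 3 groups of ETV4 overlapped. SPRED1 and SPRED2 were highest in tet-MYCshRNA mammospheres with DOX. SPRY2 had its highest mean in 3D cells (147 ± 1.498 CPM, mean ± SD, n = 3), and the next groups, GO-203-treated 3D cells (139.5 ± 8.72 CPM), the tet-MUC1shRNA vehicle group (133 ± 4.41 CPM) and tet-MYCshRNA DOX (125 ± 5.72 CPM), each overlapped with their neighbour in the order.

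For DUSP5 all 7 groups were apart from their neighbours in the order, and for DUSP4 all but one pair. DUSP4 ran from tet-MUC1shRNA vehicle (355 ± 31.8 CPM) and DOX (247 ± 19.3 CPM) through tet-MYCshRNA vehicle (151 ± 2.94 CPM) and DOX (141 ± 8.92 CPM), which overlapped, to 3D cells (92.4 ± 2.26 CPM), 3D cells with GO-203 (36.4 ± 0.799 CPM) and 2D cells (6.84 ± 1.25 CPM). For DUSP6 the 3 groups tet-MYCshRNA DOX, GO-203-treated 3D cells and tet-MUC1shRNA vehicle overlapped in a chain between 54.8 and 69.2 CPM. For ETV5 the tet-MUC1shRNA vehicle group and both tet-MYCshRNA groups overlapped between 155.9 and 177.5 CPM.

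Per length of exon, the genes changed places between 2D and 3D cells. In 2D cells SPRY2 (4.49 CPM per kb of exon), SPRED2 (4.41) and ETV5 (3.87) had the highest levels and SPRY4 (0.655) and ETV4 (0.234) the lowest. In 3D cells DUSP5 was first (58.8 CPM per kb of exon), followed by SPRY2 (45.6), ETV5 (25.7), DUSP6 (23.7) and SPRY4 (21.2), and ETV4 remained last (3.84). DUSP5 was also first in the vehicle-treated tet-MUC1shRNA and tet-MYCshRNA mammospheres (111 and 42.4), whereas in tet-MYCshRNA mammospheres with DOX it was eighth (13.6) and SPRY4 first (40.03).

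**Figure D2:**
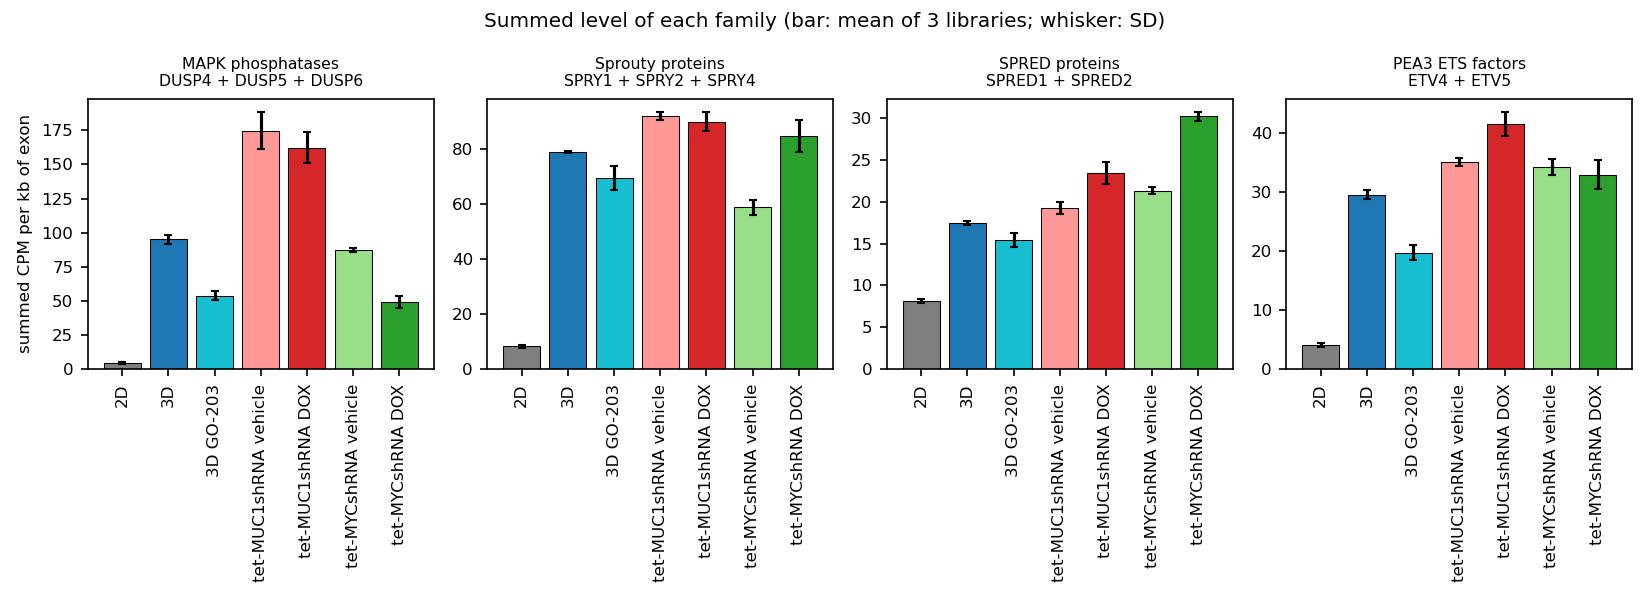
Summed CPM per kb of exon of the phosphatase, Sprouty, SPRED and ETS factor genes in the 7 groups (bar, mean; whisker, SD; n = 3 libraries). In 2D cells the phosphatase sum was 4.41 ± 0.489 and in 3D cells 95.2 ± 3.33.

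The first comparison asked what differs between 3D mammospheres and 2D cells. All 10 feedback genes rose and 0 fell, against 32% of the 19190 tested genes that rose and 31.7% that fell. Beyond an absolute log2 fold change of 1.5 were 8 of the 10, all but SPRED1 and SPRED2, against 16.2% of the tested genes. The 10 genes had a median log2 fold change of 3.60, and all tested genes one of -0.0074. The 2 groups of libraries did not overlap for any of the 10, as for 64.1% of the tested genes, and the count of fallen genes was also 0 at an unadjusted p under 0.05 and with DESeq2.

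Among the phosphatases, DUSP5 measured 4.64, 4.98 and 5.79 CPM in 2D cells and 151, 143 and 153 CPM in 3D cells. The 3D libraries lay within a narrow band far above the 2D libraries, a 30.1-fold rise (log2 fold change 4.91 ± 0.0816, adjusted p = 4.96e-17 by edgeR's quasi-likelihood test with Benjamini-Hochberg adjustment). DUSP4 went from 5.69, 6.68 and 8.17 CPM to 92.5, 90.1 and 94.6 CPM (3.80 ± 0.0960, adjusted p = 6.08e-15), and DUSP6 from 5.27, 5.54 and 5.93 CPM to 90.3, 87.9 and 95.7 CPM (4.09 ± 0.0747, adjusted p = 1.29e-16). All 3 phosphatase transcripts thus rose by over 10-fold.

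The Sprouty genes differed more among themselves. SPRY4 had the largest rise of the 10, from 4.64, 4.31 and 3.93 CPM to 141, 142 and 133 CPM (5.07 ± 0.0805, adjusted p = 2.98e-17). SPRY2 went from 14.5, 14.5 and 14.4 CPM to 146, 146 and 148 CPM (3.40 ± 0.0618, adjusted p = 1.23e-16). SPRY1, whose 2D libraries were the most spread of the Sprouty genes, went from 14.7, 12.01 and 11.1 CPM to 48.1, 46.4 and 47.2 CPM (1.97 ± 0.0937, adjusted p = 2.16e-11). The intervals of the 3 log2 fold changes, 4.90 to 5.25, 3.27 to 3.53 and 1.77 to 2.17, did not overlap.

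The SPRED genes, already at over 20 CPM in 2D cells, rose least. SPRED1 went from 28.5, 27.9 and 29.8 CPM to 49.9, 54.7 and 54.8 CPM (0.94 ± 0.0653, adjusted p = 2.65e-09), and SPRED2 from 22.7, 25.6 and 24.5 CPM to 58.9, 58.2 and 58.2 CPM (1.32 ± 0.0633, adjusted p = 2.37e-11). Of the ETS factors, ETV4 rose from 1.14, 0.623 and 0.706 CPM, which are 35 to 51 counts a library, to 15.3, 13.1 and 12.04 CPM (4.11 ± 0.191, adjusted p = 1.52e-11). ETV5 rose from 19.9, 24.3 and 22.9 CPM to 151, 148 and 147 CPM (2.79 ± 0.0704, adjusted p = 6.1e-15). ETV5 was the more abundant of the ETS pair in both groups, at 25.7 against 3.84 CPM per kb of exon in 3D cells.

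When the vehicle-treated tet-MUC1shRNA group took the place of the 3D cells, all 10 genes again rose against 2D cells, by log2 fold changes of 5.73 for DUSP4, 5.81 for DUSP5, 3.41 for DUSP6, 5.73 for SPRY4, 4.61 for ETV4 and 1.28 to 3.24 for the others. The medium, serum, attachment and passage differ together between 2D and 3D cells and cannot be told apart here, and in bulk samples fewer cells of a type and less RNA per cell cannot be told apart either. Mitochondrially encoded genes took 5.22% to 5.24% of the counts in 2D cells and 2.32% to 2.72% in 3D cells. Markers of other cell types also moved. The 2 endothelial markers summed to 0 to 0.0353 CPM in 2D cells and 5.83 to 7.08 CPM in 3D cells. The sums of the 3 leukocyte markers were 1.13 to 1.67 and 0.106 to 0.154 CPM. Those of the 5 epithelial markers were 1.79 to 1.99 and 0.654 to 0.904 CPM. The 4 mesenchymal markers summed to 2180 to 2245 and 7785 to 8370 CPM. FN1 carried this rise (means of 460.2 and 6590 CPM), and ZEB1 was also higher in 3D cells (95.7 and 202.8 CPM). CDH2 was lower in 3D cells (450.7 and 50.16 CPM), and VIM was slightly higher (1203 and 1261 CPM). The part of these markers and of the mitochondrial genes in the result was not tested.

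**Figure D3:**
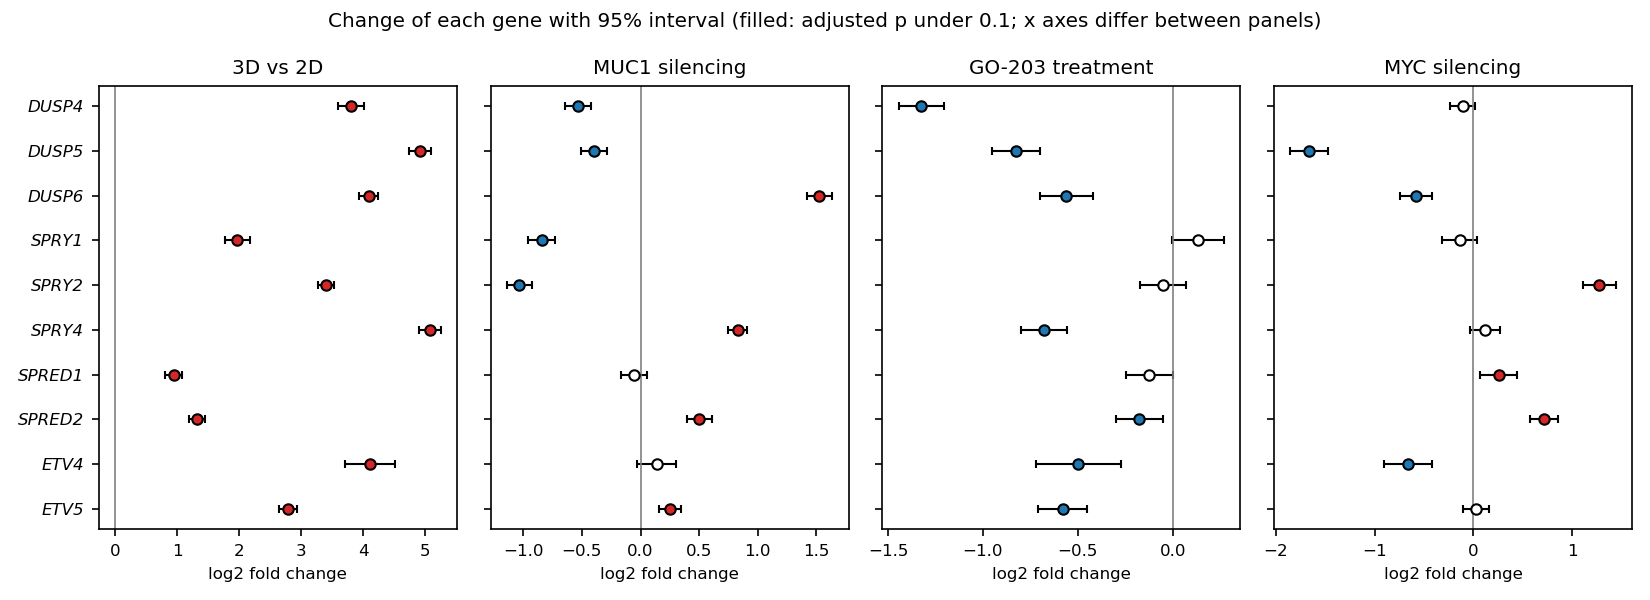
log2 fold change of each feedback gene (dot) with its 95% interval (line) in the 4 comparisons, filled where the adjusted p is under 0.1 (red, rose; blue, fell); the x axes differ between panels. All 10 dots are red in 3D vs 2D, 7 are blue with GO-203, and the silencing panels hold both colours.

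The second comparison asked what changes when MUC1 is silenced in mammospheres. The feedback genes split, with 4 that rose (DUSP6, SPRY4, SPRED2 and ETV5), 4 that fell (DUSP4, DUSP5, SPRY1 and SPRY2) and 2 that did not pass the test (SPRED1 and ETV4). Of the 19220 genes tested, 30.7% rose and 31.6% fell, so 4 of 10 in each direction is near the share of all genes. Beyond the fold limit was 1 of the 10, DUSP6, against 8.82% of all genes tested. The groups did not overlap for 8 of the 10 genes and for 61.5% of those tested, and the median log2 fold change was 0.04 for the 10 and 0.02 for all.

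DUSP6 measured 54.8, 57.8 and 60.8 CPM with vehicle and 168, 179.9 and 155 CPM with DOX. Every DOX library lay above every vehicle library, a 2.88-fold rise (log2 fold change 1.53 ± 0.0522, adjusted p = 1.21e-15). DUSP4, a phosphatase of the nucleus, moved the other way, from 387, 324 and 353 CPM to 253, 262 and 225 CPM (-0.54 ± 0.0542, adjusted p = 3.31e-08). DUSP5, the nuclear phosphatase specific to ERK, went from 307, 257 and 281 CPM to 218, 228 and 201 CPM (-0.40 ± 0.0525, adjusted p = 1.58e-06). DUSP6 thus went up while DUSP4 and DUSP5 went down. The summed level of the 3 was 175 ± 13.8 CPM per kb of exon with vehicle and 162 ± 11.2 with DOX, with overlapping libraries.

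The Sprouty genes also split. SPRY4 measured 218, 222 and 221 CPM with vehicle and 401, 397 and 382 CPM with DOX (0.83 ± 0.0394, adjusted p = 2.44e-13). SPRY2, which binds the ubiquitin ligase CBL and can thereby protect receptors, measured 129.7, 138 and 131 CPM and 65.1, 70.7 and 59.9 CPM (-1.04 ± 0.0514, adjusted p = 4.65e-13), or 0.488-fold. SPRY1 measured 67.1, 65.2 and 68.97 CPM and 40.1, 38.2 and 34.7 CPM (-0.84 ± 0.0540, adjusted p = 2.74e-11). In all 3 genes the groups were apart, upward for SPRY4 and downward for SPRY1 and SPRY2, and their summed level was 91.9 ± 1.32 CPM per kb of exon with vehicle and 89.8 ± 3.56 with DOX.

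SPRED2 rose from 56.2, 59.6 and 56.1 CPM to 85.9, 83.6 and 75.7 CPM (0.50 ± 0.0509, adjusted p = 3.43e-08), and ETV5 from 163, 173 and 177 CPM to 213, 208 and 194 CPM (0.25 ± 0.0444, adjusted p = 5.27e-05). SPRED1 measured 64.2, 69.3 and 73.02 CPM with vehicle and 68.9, 67.7 and 63.8 CPM with DOX, and the groups overlapped (-0.056 ± 0.0535, adjusted p = 0.395, 95% interval -0.17 to 0.056). ETV4 measured 21.5, 18.7 and 17.4 CPM and 21.8, 22.5 and 19.2 CPM, again with overlap (0.14 ± 0.0792, adjusted p = 0.152, 95% interval -0.029 to 0.30). Scaling by library size alone moved the median of all genes up by 0.17, took SPRED1 to 0.11 (adjusted p = 0.0926) and brought ETV4 past the threshold (0.30, adjusted p = 0.00181). Without tet-MUC1shRNA vehicle replicate 1, SPRED1 (-0.11, adjusted p = 0.0724) and ETV4 (0.22, adjusted p = 0.0231) both passed, and ETV4 also did without DOX replicate 3 (0.18, adjusted p = 0.0927) and among genes with at least 10 counts in every library (0.19, adjusted p = 0.046). Mitochondrially encoded genes took 2.61% to 2.78% of the counts with vehicle and 6.36% to 6.72% with DOX, the epithelial markers summed to 0.0519 to 0.140 CPM and 2.37 to 2.77 CPM, the endothelial markers to 3.89 to 4.15 CPM and 2.64 to 3.33 CPM, and the mesenchymal markers to 11260 to 12340 CPM and 8316 to 8943 CPM. Of the mesenchymal markers, FN1 (means of 10220 and 7246 CPM) and ZEB1 (320 and 121 CPM) were lower with DOX. CDH2 (11.8 and 75.1 CPM) and VIM (1083 and 1233 CPM) were higher. The part of these markers and of the mitochondrial genes in the changes was not tested.

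The third comparison asked what GO-203 does to 3D cells. Of the 10 feedback genes 7 fell, 0 rose and 3 did not pass the test, against 12.9% of the 18488 tested genes that fell and 11.1% that rose. None of the 10 was beyond the fold limit by edgeR, as for all but 0.757% of the genes tested. The median log2 fold change was -0.53 for the 10 and 0.02 for all genes, and the groups did not overlap for 7 of the 10 and for 34% of those tested. The count of risen genes was also 0 at an unadjusted p under 0.05 and with DESeq2.

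The phosphatases fell together. DUSP4 measured 92.5, 90.1 and 94.6 CPM in 3D cells and 36.7, 35.5 and 36.99 CPM with GO-203, with both groups tight and far apart, or 0.399-fold (log2 fold change -1.33 ± 0.0575, adjusted p = 6.02e-13). DUSP5 went from 151, 143 and 153 CPM to 83.8, 78.1 and 87.3 CPM (-0.83 ± 0.0602, adjusted p = 1.53e-09), and DUSP6 from 90.3, 87.9 and 95.7 CPM to 56.4, 58.5 and 68.2 CPM (-0.56 ± 0.0672, adjusted p = 2.32e-06). GO-203 libraries of DUSP6 were more spread than the untreated ones and still all below them.

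SPRY4 fell from 141, 142 and 133 CPM to 84.5, 84.1 and 88.6 CPM (-0.68 ± 0.0582, adjusted p = 1.94e-08). Its relatives SPRY1 and SPRY2 overlapped between the groups. SPRY1 measured 48.1, 46.4 and 47.2 CPM in 3D cells and 50.9, 46.1 and 56.5 CPM with GO-203 (0.13 ± 0.0653, adjusted p = 0.173, 95% interval -0.0018 to 0.27), and SPRY2 146, 146 and 148 CPM and 134, 135 and 149.6 CPM (-0.053 ± 0.0584, adjusted p = 0.608, 95% interval -0.17 to 0.069). Both intervals lie above a fall of the size seen for SPRY4.

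Both ETS factors fell, ETV5 from 151, 148 and 147 CPM to 96.5, 90.9 and 107 CPM (-0.58 ± 0.0624, adjusted p = 5.39e-07) and ETV4 from 15.3, 13.1 and 12.04 CPM to 10.1, 9.53 and 8.69 CPM (-0.50 ± 0.108, adjusted p = 0.00203). SPRED2 was lower by a small margin, from 58.9, 58.2 and 58.2 CPM to 52.97, 47.1 and 53 CPM (-0.18 ± 0.0602, adjusted p = 0.0444), and SPRED1 overlapped, with 49.9, 54.7 and 54.8 CPM and 47.5, 46.4 and 50.5 CPM (-0.12 ± 0.0594, adjusted p = 0.164, 95% interval -0.25 to -0.00072 before adjustment). Leaving out 3D replicate 1 (-0.17, adjusted p = 0.12) or GO-203 replicate 2 (-0.12, adjusted p = 0.206) ended the call of SPRED2, and leaving out GO-203 replicate 2 brought SPRY1 past the threshold (0.20, adjusted p = 0.0417), so that 1 gene rose. In the count table the GO-203 libraries lack values for 7587 genes and the 2D and 3D libraries for another set of 6498, so the treatment and a separate preparation of these tables cannot be told apart. Mitochondrially encoded genes took 2.32% to 2.72% of the counts in 3D cells and 3.34% to 4.40% with GO-203, and their part in the changes was not tested.

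The same 3D libraries entered the comparisons with 2D cells and with GO-203, so the changes of the 2 comparisons are not independent and are only set side by side. DUSP4 changed by 3.80 from 2D to 3D cells and by -1.33 with GO-203, DUSP5 by 4.91 and -0.83, SPRY4 by 5.07 and -0.68, DUSP6 by 4.09 and -0.56, ETV5 by 2.79 and -0.58, and ETV4 by 4.11 and -0.50. SPRED2 changed by 1.32 and -0.18, and the 3 genes not called with GO-203 stood at 3.40 and -0.05 (SPRY2), 0.94 and -0.12 (SPRED1) and 1.97 and 0.13 (SPRY1). With GO-203 the 10 genes still lay above every 2D library, as for DUSP4 at 36.4 ± 0.799 against 6.84 ± 1.25 CPM (mean ± SD, n = 3). MUC1 itself was 1.26-fold higher with GO-203 (adjusted p = 0.00191).

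The fourth comparison asked what changes when MYC is silenced. The feedback genes again split, with 3 that rose (SPRY2, SPRED2 and SPRED1), 3 that fell (DUSP5, ETV4 and DUSP6) and 4 that did not pass the test (DUSP4, SPRY1, SPRY4 and ETV5). The library tet-MYCshRNA DOX replicate 1 stood apart, with a chi-square over degrees of freedom of 45.6 and 31.5 against the others of its group, where all pairs without it had at most 18.55. Without it 4 genes rose and 3 fell, SPRY4 being added, and DUSP5 stood at -1.57 and SPRED1 at 0.16 (adjusted p = 0.0277). Of the 19951 genes tested, 30.3% rose and 28.1% fell, close to the share among the 10. Beyond the fold limit was 1 of the 10, DUSP5, against 10.5% of all genes. The groups did not overlap for 7 of the 10 and for 59.2% of those tested, and the median log2 fold change was -0.04 for the 10 and 0.0088 for all.

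DUSP5 measured 109, 107 and 106 CPM with vehicle and 28.95, 36.8 and 37.4 CPM with DOX. It fell to 0.316-fold, the largest fall of any of the 10 genes in the 4 comparisons (log2 fold change -1.66 ± 0.0869, adjusted p = 1.66e-07). DUSP6 went from 93.6, 94.8 and 91.1 CPM to 58.1, 69.2 and 61.9 CPM (-0.58 ± 0.0722, adjusted p = 7.22e-05), and ETV4 from 21.3, 21.3 and 18.3 CPM to 11.1, 13.6 and 14.3 CPM (-0.66 ± 0.109, adjusted p = 0.000502). In these 3 genes the DOX libraries were all below the vehicle libraries.

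SPRY2 rose from 55.6, 51.1 and 46.1 CPM to 119, 130.3 and 124 CPM, or 2.42-fold (1.27 ± 0.0750, adjusted p = 3.64e-07). Both SPRED genes rose, SPRED2 from 56.7, 53.7 and 53 CPM to 86.01, 89.2 and 96.6 CPM (0.72 ± 0.0641, adjusted p = 6.25e-06) and SPRED1 from 88.5, 89.7 and 87.9 CPM to 117, 105 and 98.7 CPM (0.26 ± 0.0830, adjusted p = 0.0251). The summed SPRED level was 21.3 ± 0.380 CPM per kb of exon with vehicle and 30.2 ± 0.532 with DOX, and the libraries did not overlap.

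The other 4 genes did not pass the test. The log2 fold change was -0.11 ± 0.0580, adjusted p = 0.14 for DUSP4 (95% interval -0.24 to 0.019) and 0.025 ± 0.0599, adjusted p = 0.756 for ETV5 (95% interval -0.11 to 0.16). SPRY1 measured 24.9, 26.4 and 25.1 CPM and 22.8, 23.3 and 23.99 CPM, apart but close (-0.14 ± 0.0796, adjusted p = 0.173), and SPRY4 247, 239.7 and 230.3 CPM and 230.4, 277 and 280.1 CPM (0.12 ± 0.0698, adjusted p = 0.189). SPRY4 passed without DOX replicate 1, its lowest DOX library (0.18, adjusted p = 0.00641). The mesenchymal markers summed to 7916 to 7989 CPM with vehicle and 13690 to 16010 CPM with DOX. FN1 carried this rise (means of 5209 and 12520 CPM), whereas VIM was lower with DOX (2479 and 2219 CPM). CDH2 (22.2 and 26.1 CPM) and ZEB1 (250 and 283 CPM) were slightly higher. The endothelial markers summed to 6.34 to 7.28 CPM and 8.73 to 10.3 CPM. The part of these markers in the changes was not tested. MYC was lowered to 0.651-fold, so the comparison covers a partial loss of the transcript.

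The effects of MUC1 and MYC silencing, which share no library, were compared by the interaction of line and DOX over 12 libraries. All 10 feedback genes differed at an adjusted p under 0.1, against 52.9% of the 21585 genes tested. DUSP6 and SPRY2 were called in both silencings with opposite signs. DUSP6 rose with MUC1 silencing and fell with MYC silencing (difference of log2 fold changes, MUC1 minus MYC, 2.09 ± 0.0951, adjusted p = 6.94e-12), and SPRY2 did the reverse (-2.32 ± 0.0975, adjusted p = 2.54e-12). DUSP5 fell in both, less with MUC1 silencing (difference 1.25 ± 0.109, adjusted p = 3.2e-08), and SPRED2 rose in both, with a difference of -0.23 ± 0.0833, adjusted p = 0.0307. The difference for SPRED2 lost its call with library size alone (-0.03, adjusted p = 0.818) and with no filter on low counts (-0.17, adjusted p = 0.327), that for SPRED1 with library size alone (-0.12, adjusted p = 0.397), and that for ETV5 in 1 fit over all 21 libraries (0.19, adjusted p = 0.115) and without tet-MUC1shRNA vehicle replicate 1 (0.17, adjusted p = 0.101). The lines also differ in passage.

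MUC1 silencing and GO-203 both act on MUC1-C, in different lines and with no library in common. The length of treatment may differ between them as well. Their effects differed for 9 of the 10 genes, against 44.9% of the 20829 genes tested. DUSP6, SPRY4, SPRED2 and ETV5 rose with MUC1 silencing and fell with GO-203, with differences (silencing minus GO-203) of 2.09 ± 0.0910, adjusted p = 8.02e-16 for DUSP6, 1.51 ± 0.0649, adjusted p = 6.77e-16 for SPRY4, 0.68 ± 0.0824, adjusted p = 1.73e-07 for SPRED2 and 0.84 ± 0.0768, adjusted p = 1.42e-09 for ETV5. DUSP4 and DUSP5 fell in both and fell further with GO-203 (differences of 0.79 ± 0.0820, adjusted p = 1.23e-08 and 0.43 ± 0.0824, adjusted p = 0.000118). SPRY1 and SPRY2 fell with silencing, and their difference from GO-203 was -0.98 ± 0.0907, adjusted p = 1.81e-09 and -0.98 ± 0.0775, adjusted p = 8.99e-11. For SPRED1 the difference was 0.073 ± 0.0847, adjusted p = 0.549, with a 95% interval of -0.10 to 0.25, and it passed with library size alone (0.23, adjusted p = 0.0314).

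**Figure D4:**
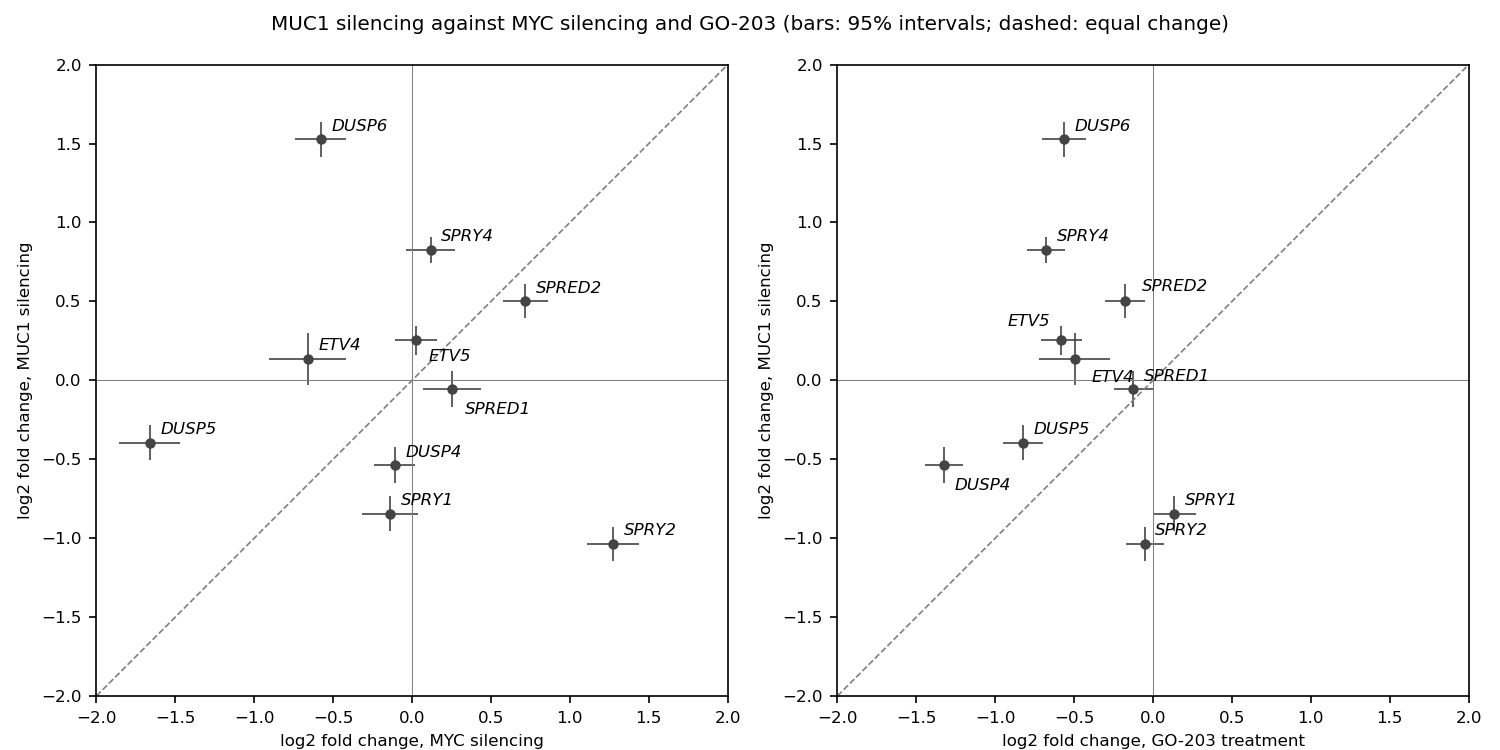
log2 fold change of each feedback gene with MUC1 silencing (y axis) against MYC silencing (left) and GO-203 (right), with 95% intervals as lines and equal change as a dashed line. DUSP6 stands at 1.53 on the y axis and at -0.58 (left) and -0.56 (right) on the x axes, and SPRY2 lies at -1.04 on the y axis and at 1.27 with MYC silencing.

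Over the 21 libraries the log2 CPM of the 10 genes gave 45 pairwise Pearson correlations from 0.26 to 0.99 with a median of 0.84, given as a description since the libraries share groups and the difference between 2D cells and mammospheres enters every pair. SPRY4 and ETV5 were the closest pair (0.99), followed by SPRY4 with ETV4 and ETV4 with ETV5 (both 0.98), and SPRY1 and SPRED1 the most distant (0.26). Of 22642 other genes, those whose pattern was most like SPRY4 were NOS2 (0.989), PLCL2 (0.988) and CCND1 (0.986), and those most like ETV5 were MLPH, NOS2 and CCND1 (each 0.986). PRRX1 (0.978), CMAS (0.975) and TPCN1 (0.974) were closest to DUSP4, and PSD3 (0.981), GALNT14 (0.979) and PEX5L (0.971) to SPRED1, each over 21 libraries.

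Other genes of the pathway were read beside the feedback genes from 4 lists. The counts of each list stand beside the share of all tested genes. In 3D vs 2D (32% rose and 31.7% fell over all genes), 7 of the 10 relatives of the feedback families rose and 2 fell, 12 of 22 genes of the cascade itself rose and 6 fell, 6 of 7 tested ERK output genes rose and 1 fell, and 3 of 7 ETS and CIC regulators rose and 3 fell. Median log2 fold changes were 0.89, 0.18, 2.66 and -0.13 in that order, beside 3.60 for the feedback genes. CCND1, the cyclin of the G1 phase, rose by 6.11 ± 0.113, the AP-1 factor FOSL1 by 3.09 ± 0.1000, and the phosphatase DUSP1 by 2.96 ± 0.0798, whereas in the cascade the largest change was that of the adaptor SHC1 (1.94 ± 0.0649), and the scaffold KSR1 followed (0.99 ± 0.0836). DUSP9 rose by 3.05 ± 0.386 from a low level and ETS1 by 1.62 ± 0.0563, and ATXN1, a partner of CIC, fell by 2.37.

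With MUC1 silencing (30.7% rose and 31.6% fell over all genes), 3 relatives rose and 5 fell, 7 cascade genes rose and 11 fell, 3 of 8 output genes rose and 3 fell, and 1 regulator rose and 4 fell. The kinases MAPK3 (ERK1) and MAP2K1 (MEK1) fell by 0.87 and 0.71 on the log2 scale, and DUSP9, the phosphatase relative with the largest change, fell by 3.78, while DUSP10 rose by 1.32 ± 0.163. EPHA4 (-1.22), PHLDA1 (-0.77), ETS2 (-0.82) and ETS1 (-0.29) also fell. With GO-203 (11.1% rose and 12.9% fell over all genes), 1 of the 22 cascade genes rose and 3 fell, near those shares, with RPS6KA1 (-0.63) and MAP2K2 (-0.18) the largest changes. Relatives had 3 that rose and 3 that fell, output genes 3 and 4 of 7, and regulators 1 and 1. ETV1, the third PEA3 factor, fell by 0.90 and CCND1 by 0.89, whereas FOS rose by 1.18 ± 0.102, DUSP8 by 0.89 ± 0.164 and ATXN1 by 0.32 ± 0.110, and ETS1 fell by 0.15.

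With MYC silencing (30.3% rose and 28.1% fell over all genes), 5 relatives rose and 3 fell, 9 cascade genes rose and 7 fell, 2 of 7 output genes rose and 4 fell, and 4 regulators rose and 2 fell. DUSP7, another ERK phosphatase of the cytoplasm, fell by 1.15 (means of 186 and 85.0 CPM). DUSP9 fell by 2.05 from a low level (1.11 and 0.269 CPM), and DUSP8, given below, was also low (0.779 and 1.64 CPM). The other relatives were named after their values were seen, and of these DUSP2 fell by 3.65 from under 1 CPM, whereas DUSP8 (1.04 ± 0.286), DUSP16 (0.85 ± 0.0867), SPRY3 (0.87 ± 0.145), SPRED3 (0.55 ± 0.118) and ETV1 (0.39 ± 0.0594) rose and DUSP1 (0.063 ± 0.0974) and DUSP10 (0.0072 ± 0.164) did not pass the test. EPHA4 rose by 3.02 ± 0.0837 and the exchange factor SOS2 by 0.91 ± 0.0803, and FOSL1 fell by 1.25, ETS2 by 1.10 and the RAS GTPase-activating gene RASA1 by 0.84, while ATXN1 rose by 0.85 ± 0.0959.

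**Figure D5:**
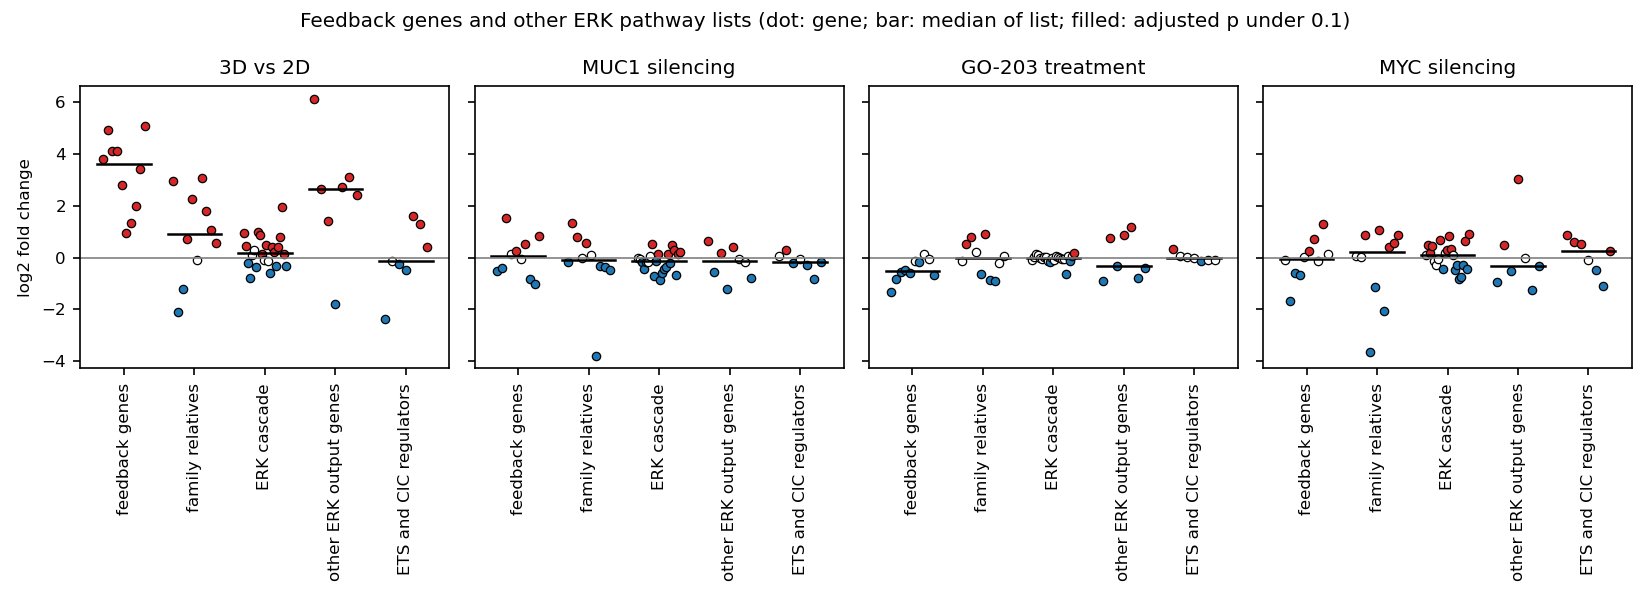
log2 fold change of every tested gene (dot) of the feedback genes and the 4 other ERK pathway lists in the 4 comparisons, with the median of each list (bar); filled dots passed an adjusted p under 0.1. In 3D vs 2D the medians are 3.60 for the feedback genes and 0.18 for the cascade, and with GO-203 they are -0.53 and -0.0085.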

How the data were processed

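Raw gene counts from 21 BT-549 libraries were used. Per the paper and the submitters' processing notes, the authors aligned reads of stranded mRNA libraries to GRCh38 with STAR (2.7.3a in the notes, another release in the methods), counted them with featureCounts and deposited the counts without normalization. The annotation release, strand setting and treatment of multi-mapping reads are not given in the sources used here. Of the 42339 identifiers, 42252 were matched to a symbol. Cells without a value (4952 to 7587 genes a library, none of them a feedback gene) were read as 0.

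In R 4.3.3, each comparison was fitted on its own 6 libraries with edgeR 4.0.16 (filterByExpr, TMM factors, quasi-likelihood test, Benjamini-Hochberg adjustment over all genes tested), and interactions on 12 libraries. Genes were called at an adjusted p under 0.1, with a second limit of 1.5 on the absolute log2 fold change. Values are log2 fold change ± SE, with 95% intervals from the same fit. CPM were scaled by TMM over all 21 libraries, and correlations used log2 CPM with a prior count of 2. Exon lengths came from GENCODE release 44. Counting error weighs most on genes of few counts, such as ETV4 in 2D cells. The fits of 3D vs 2D and of the interaction of both silencings were tested on simulated data.

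The 10 genes and all lists were chosen with earlier results of these data known. Named besides the 10 were MUC1, MYC, for each other list and comparison the 2 called genes with the largest absolute log2 fold change and a mean of at least 1 CPM in a group, and the 3 genes most correlated with the gene of each family that had the highest mean CPM (not per length). Alternatives were DESeq2 1.42.0, RLE factors, library size alone, filters of 1 count in all or of 10 counts in each library, a joint fit of the 21 libraries, the replicate block, an adjusted p under 0.05, tet-MUC1shRNA vehicle mammospheres in place of 3D cells, and leaving out each library. Tabulation used the R package data.table (version 1.17.8), and figures were drawn with matplotlib 3.10.9.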

Additional observations from a re-analysis of the deposited data

Results flagged for a closer look

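The effects of MUC1 and MYC silencing differed by the interaction test of edgeR for all 10 feedback genes, at an adjusted p under 0.1, as for 52.9% of all genes tested. The difference of log2 fold changes, MUC1 minus MYC silencing, was positive for DUSP6 (2.09), DUSP5 (1.25), ETV4 (0.78), SPRY4 (0.70) and ETV5 (0.21). It was negative for SPRY2 (-2.32), SPRY1 (-0.72), DUSP4 (-0.44), SPRED1 (-0.32) and SPRED2 (-0.23). SPRY2 and DUSP6 had the widest gaps, with DOX libraries on opposite sides of the vehicle libraries in the 2 lines in 3 of 3 libraries each. The difference lost its call for SPRED1 (adjusted p = 0.397) and SPRED2 (adjusted p = 0.818) with library size alone, for SPRED2 also with no filter on low counts (adjusted p = 0.327), and for ETV5 in 1 fit over all 21 libraries (adjusted p = 0.115) and without tet-MUC1shRNA vehicle replicate 1 (adjusted p = 0.101).

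The effects of MUC1 silencing and GO-203 differed by the same test for 9 of the 10 genes and for 44.9% of all genes tested. The difference, silencing minus GO-203, was positive for DUSP6 (2.09), SPRY4 (1.51), ETV5 (0.84), DUSP4 (0.79), SPRED2 (0.68), ETV4 (0.64) and DUSP5 (0.43), and negative for SPRY2 (-0.98) and SPRY1 (-0.98). The line, the agent, the vehicle and the set of genes with a value differ between these arms. The length of treatment was not taken into account and may differ as well. The part of all these in the differences was not tested.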

How the results depend on the processing

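Counts of the feedback genes called stayed within 1.5 times under all alternatives run, apart from the risen genes with GO-203, which went from 0 to 1 without 3D_GO203 replicate 2 (range without one library, 0 to 1). In 3D vs 2D all 140 repeats of single genes kept their direction and call. Of the 130 repeats in each of the other comparisons, 124 did so with MUC1 silencing, 127 with GO-203 and 123 with MYC silencing, and of the 190 in each interaction 185 (MUC1 against MYC) and 189 (MUC1 against GO-203). SPRED1 with MUC1 silencing changed sign with library size alone (0.11). ETV5 with MYC silencing, never called, changed sign with library size alone (-0.00021) and no filter beyond 1 count (-0.0085), and ranged from -0.0075 (without tetMYC_vehicle replicate 2) to 0.060 when one library was left out, at -0.0038 without replicate 3 of that group. DUSP4 with MYC silencing passed with library size alone (-0.14) and SPRY4 in the fit of all 21 libraries (0.14). The cause was not tested. Same-numbered libraries deviated from their group means with correlations of -0.18 to 0.080, so the numbers were not taken to pair the libraries. With the replicate block, 10 genes rose in 3D vs 2D, 4 rose and 4 fell with MUC1 silencing, 7 fell with GO-203 and 3 rose and 3 fell with MYC silencing, as without it, and over all genes the block moved the called genes from 4452 to 4973 with GO-203 and from 11665 to 10478 with MYC silencing. Every library correlated best with its own number for GO-203 (6 of 6), a hint from the data only, against 1, 3 and 0 of 6 in 3D vs 2D, MUC1 and MYC silencing. Among the 10 feedback genes, ETV4 in 2D cells had the fewest counts, 35 to 51 a library.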
